A study of Homo sapiens with 10 samples.

Results

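The long arm of human chromosome 13 (13q) carries RB1, the retinoblastoma tumour suppressor, together with many other genes. A list of 59 protein-coding genes spread along the arm is described here, out of 26485 genes in the count tables. Each was taken by its symbol. The genes were selected on their log2 fold change between the populations compared below, so the members' values in that comparison are given as a description, without a test. The RefSeq gene table of GRCh38.p14 placed 598 listed genes on chromosome 13, of which 272 were expressed highly enough to be tested. All 59 members were among these 272, and 213 other genes of the chromosome made up the rest.

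Polyadenylated RNA was sequenced from SW480 cells, a human line derived from a colorectal adenocarcinoma, labelled as wild type and grown in a serum-containing medium. The cells had been separated by flow cytometry on ROBO1, a surface receptor of the Slit guidance proteins, into a ROBO1-positive population (ROBO1pos, labelled SW480-CBC) and a ROBO1-negative population (ROBO1neg, labelled SW480-RSC). Each population had 5 replicate libraries, and both come from 1 cell line without further treatment. Whether the replicates were separate cultures is not in the labels. Any p-value here measures only how far these libraries spread, and that spread may be technical. The gate was checked on its own gene: ROBO1 stood at 429 ± 26.6 counts-per-million (CPM, SD, n = 5) in ROBO1pos and at 7.25 ± 1.47 in ROBO1neg (SD, n = 5).

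Gene counts per library summed to 23228686 at the lowest and 29539100 at the highest, and 1 CPM stood for 23.2 to 29.5 reads. Reads on genes were 57.5% to 59.7% of the reads listed in ROBO1pos and 63.1% to 63.8% in ROBO1neg, and reads aligned to several places were a mean of 24.6% and 21.2%. The part of this difference in the results was not tested. Of 8 colorectal epithelial markers, 7 were detected, KRT20 was at 0 in every library and CDX1 was below 1 CPM on average in both groups. The epithelial markers summed to between 5736 and 7010 CPM in ROBO1pos and between 7937 and 10468 in ROBO1neg. KRT8 and KRT18 made up most of these sums, while EPCAM (679.6 ± 22.9 CPM in ROBO1pos, 302 ± 12.8 CPM in ROBO1neg) and VIL1 (503 ± 23.3 and 27.6 ± 3.14 CPM) had the opposite order (SD, n = 5 each). The markers of other cell types, 5 immune, 6 fibroblast, 4 endothelial and 3 neural, summed to at most 4.08, 22.5, 4.25 and 9.72 CPM in any library, and the fibroblast marker COL3A1 and the glial marker GFAP were at 0 in all 10. The part of these marker levels in the results was not tested.

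RB1 encodes a protein that holds back entry into the DNA synthesis phase of the cell cycle by binding E2F transcription factors, which pair with DP proteins such as the product of TFDP1. Cyclin-dependent kinases with D-type cyclins phosphorylate the RB protein and release E2F. Although RB1 is a tumour suppressor, the long arm of chromosome 13 is among the regions often gained in colorectal cancer. Most other genes of the list serve general cell functions, including chromosome segregation, transcription, RNA decay, protein transport and mitochondrial metabolism.

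Reference sequences at the 5′ ends of 4 members are shown: DIS3, whose promoter window holds an E2F word, TFDP1, the partner gene of the E2F factors, and ELF1 and WBP4, which share a promoter interval. The sequences come from RefSeq promoter windows of GRCh38.p14, are written 5′ to 3′ and end at or before the outermost RefSeq start. In DIS3 (chr13:72781901-72782150, minus strand) capitals mark the E2F word TTTCCCGC. In TFDP1 (chr13:113584503-113584687, plus strand) capitals mark both matches to the NRF1 word, read on the opposite strand. In the 122 bases between the starts of ELF1 and WBP4 (chr13:41061387-41061508, plus strand) capitals mark the words TATAAA and CCAAT, each read on the opposite strand, the strand of ELF1.
DIS3: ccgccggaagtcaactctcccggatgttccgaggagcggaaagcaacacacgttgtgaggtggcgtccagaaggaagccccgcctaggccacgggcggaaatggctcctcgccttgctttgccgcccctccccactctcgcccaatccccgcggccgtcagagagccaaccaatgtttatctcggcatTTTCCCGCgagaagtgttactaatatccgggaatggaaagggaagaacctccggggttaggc
TFDP1: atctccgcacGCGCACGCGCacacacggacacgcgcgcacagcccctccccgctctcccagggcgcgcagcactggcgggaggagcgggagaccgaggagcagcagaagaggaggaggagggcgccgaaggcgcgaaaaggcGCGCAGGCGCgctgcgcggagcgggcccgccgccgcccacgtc
ELF1-WBP4 interval: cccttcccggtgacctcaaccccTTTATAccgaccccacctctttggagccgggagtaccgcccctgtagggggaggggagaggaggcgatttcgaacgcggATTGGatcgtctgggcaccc

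Across the list, expression was mostly lower in ROBO1pos by a moderate and similar amount. The log2 fold changes of ROBO1pos over ROBO1neg, estimated by edgeR from counts scaled by the trimmed mean of M-values (TMM), had a median of -0.50 with quartiles of -0.75 and -0.33, which is 1.41-fold higher in ROBO1neg at the median. Over all 14932 tested genes the median was 0.02, with quartiles of -0.61 and 0.55. In bulk libraries, fewer cells expressing a gene and less RNA per cell cannot be told apart. Of the members, 52 lay below 0 and 7 above. Calls at an adjusted p under 0.05 in edgeR's quasi-likelihood test (Benjamini-Hochberg) were made for 50 members in the direction of ROBO1neg, where 40.4% of all tested genes were called higher in ROBO1neg, and for 4 in the direction of ROBO1pos, where the share over all genes was 41.6%. Calls in either direction covered 82.0% of all tested genes, and 5 members were not called. The 5 ROBO1pos and the 5 ROBO1neg libraries did not overlap for 52 members, against 71.9% of all tested genes. Since the list was drawn up on this contrast, these counts carry no evidence of their own. The same holds for the counts by function given below. Beside them stand 84.7% of the list and 40.4% of all tested genes called higher in ROBO1neg.

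**Figure D1:**
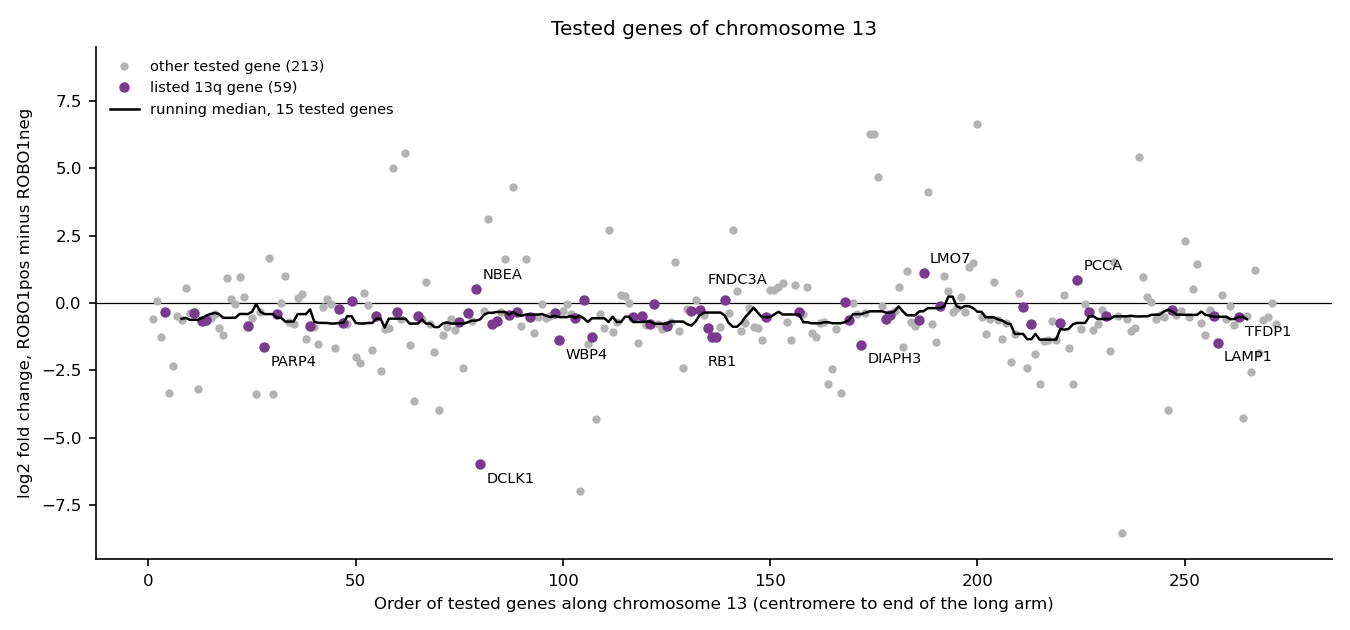
Log2 fold change (ROBO1pos minus ROBO1neg) of the 272 tested genes of chromosome 13, in their order from the centromere to the end of the long arm, with the 59 listed genes in purple, the 213 others in grey and a running median over 15 genes. Most listed genes sit in a band just below 0, and the running median is below 0 in 256 of 258 windows.

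The sizes of the differences were narrow in range apart from a few genes. Of the 59 members, 44 had a log2 fold change between -1 and 0, and 40 of these were beyond -0.25. Only 9 members, or 15.3% of the list, differed by 2-fold or more, 8 of them higher in ROBO1neg and 1 the other way. Among the 213 other tested genes of the chromosome 39.0% differed by 2-fold or more, and among all tested genes 30.3%. Most of the list, which was selected on this value, thus had differences under 2-fold in the direction of ROBO1neg. Its extremes were DCLK1 at -5.99 and LMO7 at 1.10.

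The list's median in each library shows how far libraries of a population spread, while the split between the populations follows from the choice of members. For each library, the median over the members of log2 CPM minus the gene's mean over the 10 libraries was between -0.27 and -0.22 in ROBO1pos (mean -0.25, SD 0.023, n = 5) and between 0.21 and 0.27 in ROBO1neg (mean 0.25, SD 0.024, n = 5). Within a population no library stood apart in this measure. Members above their own population's mean numbered between 24 and 37 of 59 in the ROBO1pos libraries and between 20 and 36 in the ROBO1neg libraries.

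**Figure D2:**
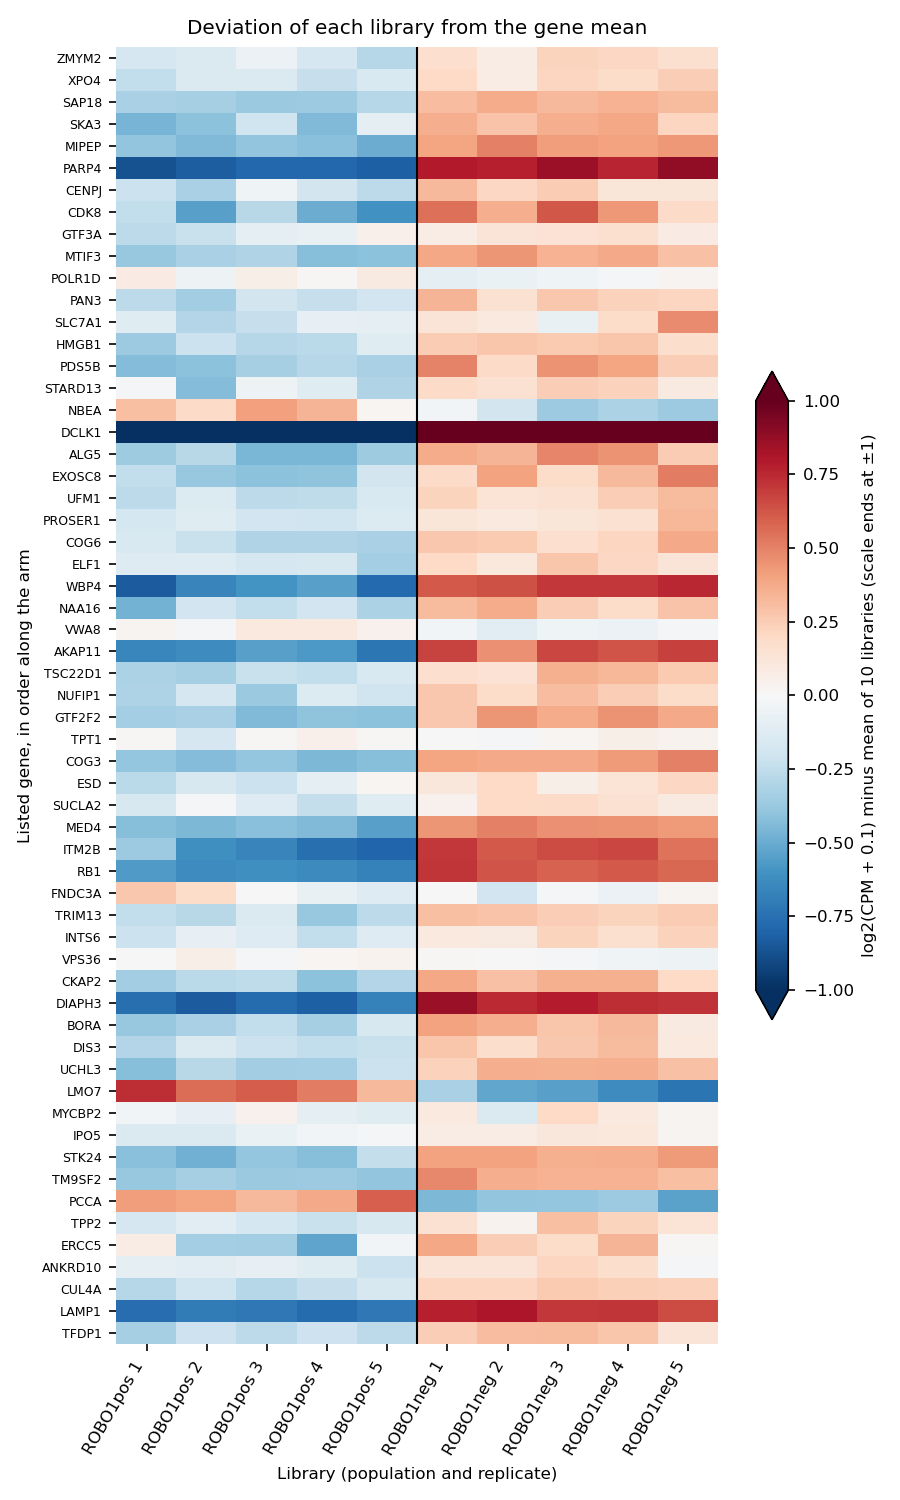
Each listed gene (rows, in order along the arm) in each of the 10 libraries (columns), as log2(CPM + 0.1) minus the gene's mean over the libraries, with the colour scale ending at ±1. Nearly all rows change from lower to higher between the 5 ROBO1pos and the 5 ROBO1neg libraries, and the rows of LMO7, PCCA and NBEA show the opposite order.

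RB1 (chr13:48303751-48481890, plus strand) was measured at 91.5, 87.8, 88.4, 87.0 and 84.6 CPM in ROBO1pos replicates 1 to 5. In ROBO1neg it stood at 222, 209.7, 204, 207 and 202 CPM. Every ROBO1neg library was above every ROBO1pos library, and the log2 fold change was -1.25 (SE 0.04), a 2.38-fold higher level in ROBO1neg. LPAR6, a receptor gene that lies inside RB1, had at most 4 reads in any library.

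TFDP1, which encodes the DP partner of E2F factors, lies near the end of the arm (chr13:113584688-113641473, plus strand). Its ROBO1pos libraries held 187, 204, 197, 204 and 197 CPM and its ROBO1neg libraries 279, 291, 294, 286 and 258 CPM. The groups did not overlap, and the log2 fold change of -0.51 (SE 0.04) was close to the median of the list. RB1 and TFDP1 were therefore both lower in ROBO1pos, RB1 by the larger factor.

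The other genes of cell division were lower in ROBO1pos as well. All 8 genes of this group, RB1 and TFDP1 included, were called higher in ROBO1neg, as were 84.7% of the list. Their median was -0.64. DIAPH3 (chr13:59665583-60163928, minus strand), a formin that builds actin filaments and acts in the division of the cell body, had 31.1, 29.4, 30.7, 29.7 and 32.8 CPM in ROBO1pos against 95.3, 88.0, 90.5, 87.5 and 86.6 CPM in ROBO1neg. Its log2 fold change was -1.54 (SE 0.04), with a wide gap between the groups. PDS5B, a regulator of cohesin on chromosomes, stood at 70.4 ± 3.08 CPM in ROBO1pos and 116 ± 10.5 CPM in ROBO1neg (SD, n = 5 each). SKA3, a component of the complex that couples kinetochores to microtubules, had a log2 fold change of -0.64. CKAP2, a spindle protein, BORA, an activator of Aurora A, and CENPJ, which acts in building centrioles, had values of -0.63, -0.58 and -0.41. BORA and DIS3 overlap at their 3′ ends, and no strand setting of the authors' counting was given in the sources used, so their reads may not be fully separated.

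Genes of transcription and chromatin numbered 10, with a median of -0.50. Of these, 9 were called higher in ROBO1neg, beside 84.7% of the list. The differences were largest for MED4, a subunit of the Mediator complex, at -0.91, and for CDK8, the kinase of Mediator's kinase module, at -0.87. GTF2F2, the small subunit of the general factor TFIIF, had a log2 fold change of -0.77 and SAP18, of the Sin3 corepressor complex, -0.67. The abundant genes TSC22D1, a leucine zipper regulator, and HMGB1, a chromatin protein, were at 485 ± 24.4 and 459 ± 28.8 CPM in ROBO1pos and at 690.3 ± 45.6 and 647 ± 18.9 CPM in ROBO1neg (SD, n = 5 each). Copies of HMGB1 and TPT1 elsewhere in the genome are nearly identical to them, so that reads of these genes can be lost to multiple alignment. ZMYM2, a zinc finger protein and the member nearest the centromere, and GTF3A, the factor of 5S ribosomal RNA genes, differed less, at -0.33 and -0.23. GTF3A also overlaps its neighbour MTIF3.

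POLR1D, a subunit shared by RNA polymerases I and III, was the member of this group that was not called. It was measured at 155, 142, 153, 148 and 157 CPM in ROBO1pos and at 137, 140.2, 143, 146 and 149 CPM in ROBO1neg. The groups overlapped, and the log2 fold change was 0.08 (SE 0.04). Without ROBO1pos replicate 2, which had the lowest of the 5 values, it was called, as it was under upper quartile and total-count scaling.

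ELF1 and WBP4 start 123 bases apart on opposite strands and were the only head-to-head pair within 1 kb among the members. ELF1, an ETS family transcription factor (chr13:40931919-41061386, minus strand), had 85.5, 85.6, 83.4, 83.7 and 73.6 CPM in ROBO1pos and 107, 100.4, 114, 108 and 102 CPM in ROBO1neg, for a log2 fold change of -0.37 (SE 0.05). WBP4, a spliceosome-associated protein (chr13:41061509-41084006, plus strand), had 18.9, 21.3, 22.3, 23.1 and 19.6 CPM in ROBO1pos and 51.7, 52.6, 55.1, 55.3 and 57.1 CPM in ROBO1neg, for a log2 fold change of -1.37 (SE 0.06). Neither gene's groups overlapped. The genes that share the 122-base interval printed above thus differed by 1.29-fold and 2.58-fold in the same direction.

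All 6 genes of RNA processing and decay were called higher in ROBO1neg, beside 84.7% of the list, with a median of -0.48. WBP4 had the largest difference. EXOSC8, a subunit of the RNA exosome, and DIS3, the exosome's nuclease, had log2 fold changes of -0.65 and -0.45. DIS3, whose upstream sequence with the E2F word is printed above, stood at 94.0 ± 3.50 CPM in ROBO1pos and 129 ± 7.85 CPM in ROBO1neg (SD, n = 5 each). PAN3, part of a deadenylase that shortens poly(A) tails, the RNA-binding protein NUFIP1 and the Integrator subunit INTS6 had values of -0.49, -0.48 and -0.32.

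Membrane traffic and the secretory pathway had 9 members with a median of -0.74, of which 7 were called higher in ROBO1neg and 1 higher in ROBO1pos. LAMP1, a major membrane protein of lysosomes (chr13:113297239-113323672, plus strand), had 111, 115, 114, 110.1 and 114 CPM in ROBO1pos against 321, 329, 305, 308 and 295 CPM in ROBO1neg. Its log2 fold change was -1.46 (SE 0.04), and within each group the libraries were close to each other. ITM2B, a membrane protein that neighbours RB1 (chr13:48233206-48270357, plus strand), had 165, 139, 135, 126 and 123 CPM in ROBO1pos and 349, 327, 335, 339.6 and 310.0 CPM in ROBO1neg, for a log2 fold change of -1.27 (SE 0.07). The neighbours ITM2B and RB1 thus had nearly the same fold change. The Golgi tethering subunits COG3 and COG6 were at -0.84 and -0.52, ALG5, an enzyme of N-glycosylation, at -0.76, TM9SF2, an endosomal membrane protein, at -0.74 and UFM1, a ubiquitin-like modifier, at -0.43.

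The exceptions of this group were VPS36 and NBEA. VPS36, a subunit of the ESCRT-II sorting complex, had 94.6, 98.8, 93.5, 96.4 and 97.0 CPM in ROBO1pos and 95.7, 94.5, 94.1, 92.8 and 91.7 CPM in ROBO1neg. These values overlapped, and the log2 fold change was 0.04 (SE 0.03). NBEA (neurobeachin), a large protein of vesicle traffic (chr13:34942270-35672736, plus strand), was higher in ROBO1pos, with 27.9, 25.8, 30.0, 28.6 and 22.9 CPM against 22.1, 19.8, 17.6, 18.1 and 17.5 CPM. Its groups were separate by a small margin, and its log2 fold change was 0.51 (SE 0.09).

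Mitochondrial and metabolic genes numbered 7, with 5 called higher in ROBO1neg, 2 called higher in ROBO1pos and a median of -0.29. MIPEP, a peptidase that processes imported mitochondrial proteins, and MTIF3, a mitochondrial initiation factor, had log2 fold changes of -0.86 and -0.74. SLC7A1, a transporter of cationic amino acids, ESD, an esterase, and SUCLA2, a subunit of succinyl-CoA ligase, were at -0.34, -0.29 and -0.27. PCCA, the alpha subunit of propionyl-CoA carboxylase (chr13:100089093-100530435, plus strand), had 72.7, 71.5, 68.2, 70.6 and 82.3 CPM in ROBO1pos and 39.8, 41.3, 41.6, 42.3 and 37.3 CPM in ROBO1neg. It was higher in every ROBO1pos library, by a log2 fold change of 0.85 (SE 0.05). VWA8, a mitochondrial ATPase, had 62.5, 60.4, 65.5, 65.6 and 63.2 CPM in ROBO1pos and 60.1, 56.8, 59.4, 58.9 and 60.8 CPM in ROBO1neg. Its groups overlapped at the edge, the log2 fold change was 0.10 (SE 0.04), and its call was lost with no filter beyond 1 count and when ROBO1pos replicate 3 or 4 or ROBO1neg replicate 2, 3 or 4 was left out.

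The signalling and cytoskeletal genes held both extremes of the list. DCLK1, a microtubule-associated kinase used as a marker of tuft cells in the gut (chr13:35768652-36131939, minus strand), had 4.02, 4.63, 4.72, 3.47 and 5.38 CPM in ROBO1pos and 355, 339, 237, 206 and 273 CPM in ROBO1neg. The groups were far apart, by 63.4-fold, and the log2 fold change was -5.99 (SE 0.18). LMO7, a protein of cell junctions and the actin skeleton (chr13:75620434-75859870, plus strand), had 259, 229, 236, 220.4 and 194 CPM in ROBO1pos and 123, 108, 106, 100.1 and 93.5 CPM in ROBO1neg. It was 2.14-fold higher in ROBO1pos, a log2 fold change of 1.10 (SE 0.08), without overlap. AKAP11, an anchoring protein of protein kinase A, had a log2 fold change of -1.25, the kinase STK24 one of -0.78, and STARD13, expressed below 10 CPM, one of -0.36.

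PARP4, which attaches ADP-ribose to proteins in vault particles (chr13:24420931-24512778, minus strand), had 110.1, 114, 117, 117 and 115 CPM in ROBO1pos and 349.7, 347, 366, 343 and 373 CPM in ROBO1neg. Its log2 fold change of -1.63 (SE 0.04) was the lowest of the list after DCLK1. ERCC5, an endonuclease of nucleotide excision repair, had 3.06, 2.26, 2.25, 1.98 and 2.83 CPM in ROBO1pos and 3.82, 3.44, 3.30, 3.68 and 2.92 CPM in ROBO1neg. The groups overlapped and the log2 fold change was -0.47 (SE 0.14). A readthrough gene annotated as BIVM-ERCC5 covers ERCC5, so that reads of ERCC5 may have been set aside as ambiguous or counted there.

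Of the 5 genes of ubiquitin and proteolysis, UCHL3, a deubiquitinase, the ligase TRIM13, CUL4A, a scaffold of ubiquitin ligases, and the peptidase TPP2 were called higher in ROBO1neg, at -0.64, -0.52, -0.46 and -0.34. MYCBP2, a large ubiquitin ligase, had 125, 120.4, 131, 119.6 and 117 CPM in ROBO1pos and 137, 116, 147, 136 and 130.0 CPM in ROBO1neg. The groups overlapped, since ROBO1neg replicates 2 and 5 lay below ROBO1pos replicate 3, and the log2 fold change was -0.12 (SE 0.06). It was called higher in ROBO1neg when ROBO1neg replicate 2 or ROBO1pos replicate 3 was left out.

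The 4 genes of nuclear transport, translation and protein modification had a median of -0.26, and 3 of them were called higher in ROBO1neg. TPT1 (chr13:45333471-45341183, minus strand) encodes the translationally controlled tumour protein. It had by far the most CPM per kb of annotated exon, at 413 in ROBO1pos and 423 in ROBO1neg. HMGB1 (59.4 and 83.8) and GTF3A (64.1 and 75.4) came next. The exons of all transcripts of a gene were joined for this measure, so it is not a level per length of the expressed transcript. TPT1 libraries held 3052, 2699, 3060.0, 3151 and 3059 CPM in ROBO1pos and 3024, 2990.0, 3072, 3158 and 3114 CPM in ROBO1neg. The groups overlapped, and the log2 fold change of -0.03 (SE 0.04) changed sign without ROBO1pos replicate 2 and under upper quartile scaling. IPO5 and XPO4, a nuclear import and a nuclear export receptor, were at -0.16 and -0.37, and NAA16, an auxiliary subunit of an N-terminal acetyltransferase, at -0.56.

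The remaining genes were PROSER1 at -0.33, ANKRD10 at -0.25 and FNDC3A, a protein with fibronectin domains. FNDC3A (chr13:48975291-49209779, plus strand) had 185, 175, 154, 146 and 140.5 CPM in ROBO1pos and 153, 135, 151, 148 and 157 CPM in ROBO1neg. Its groups overlapped, and its log2 fold change was 0.11 (SE 0.07). FNDC3A starts less than 1 Mb from RB1, so neighbouring genes did not all show the same difference.

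**Figure D3:**
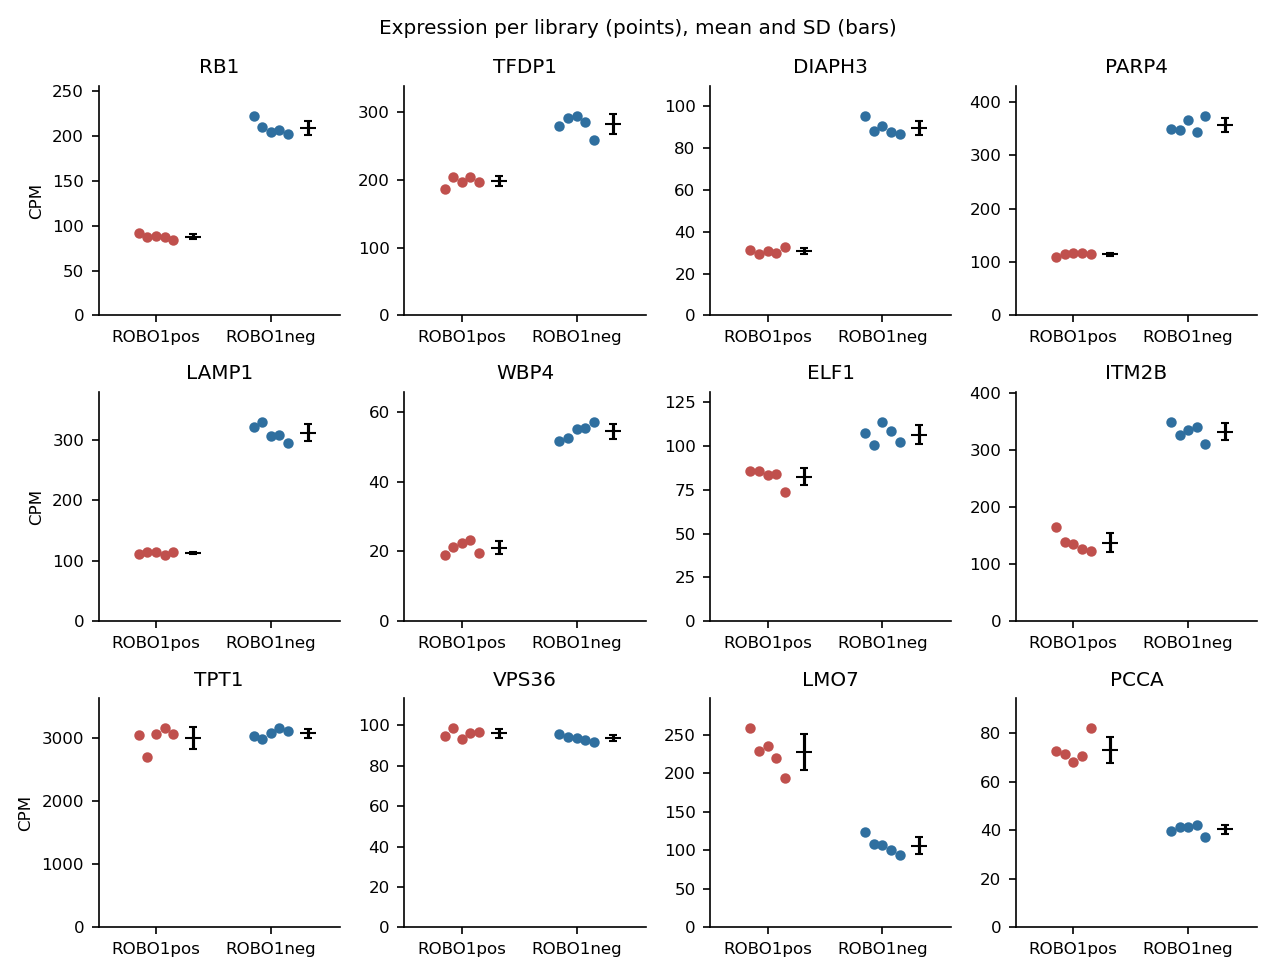
CPM in each of the 10 libraries for 12 members, with ROBO1pos in red, ROBO1neg in blue, and the mean and SD of each group beside its points. RB1, TFDP1, DIAPH3 and LAMP1 are separated with ROBO1neg higher, LMO7 and PCCA with ROBO1pos higher, and TPT1 and VPS36 overlap.

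Along the arm, the members' medians were negative in every 10 Mb stretch that held any. Since the members were selected on this value, the sign of these medians is no result about the arm. From 20 to 30 Mb the median of 12 members was -0.56, from 30 to 40 Mb that of 10 members was -0.51, and from 40 to 50 Mb, the stretch of RB1, that of 17 members was -0.52. The 4 members from 50 to 60 Mb had a median of -0.48, and the 5 from 70 to 80 Mb one of -0.45. Towards the end of the arm the medians were -0.74 (3 members), -0.34 (3 members) and -0.49 (4 members). The stretches from 60 to 70 Mb and from 80 to 90 Mb held no member. The 3 other tested genes of the first were PCDH20 at 6.26, PCDH9 at 6.29 and TDRD3 at -0.36. PCDH20 and PCDH9 rest on too few reads in ROBO1neg for a firm fold. The second held 1 other tested gene, SPRY2 at 1.35. In the stretches with members, the other tested genes had medians between -1.15 (90 to 100 Mb) and -0.19 (70 to 80 Mb). The position along the chromosome was nearly unrelated to the size of the difference (Spearman correlation 0.10 across 59 genes, as a description). The other measures were also weakly related to it across the genes: expression per kb (Spearman correlation -0.12), gene span (0.13) and exon length (0.33, with a Pearson correlation of 0.03). All of these share the same 10 libraries.

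The 213 tested genes of chromosome 13 outside the list had a median on the same side of 0 and wider quartiles than the members, which were selected on this value. Their median was -0.58 with quartiles of -1.11 and 0.17, beside -0.75 and -0.33 for the members. In edgeR's quasi-likelihood test 141 were called higher in ROBO1neg, 42 higher in ROBO1pos and 30 were not called, so 66.2% of them were called higher in ROBO1neg against 40.4% of all genes. The 123 of them that reached 20 CPM in the higher group had a median of -0.58 and the 90 below that level one of -0.55. Of the members, 57 reached 20 CPM, all but ERCC5 and STARD13.

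Genes with far larger differences lay between the members. RGCC, a cell cycle regulator, was at 0.557 ± 0.155 CPM in ROBO1pos and 70.6 ± 7.76 CPM in ROBO1neg (SD, n = 5 each), giving a log2 fold change of -6.98 (SE 0.13). EPSTI1 (-4.31), FRY (-3.97) and THSD1 (-3.34) were also higher in ROBO1neg. COL4A1, a chain of the type IV collagen of basement membranes, was at 90.9 ± 11.0 CPM in ROBO1pos and 2.12 ± 0.534 CPM in ROBO1neg (SD, n = 5 each), giving a log2 fold change of 5.41 (SE 0.13). The protocadherins PCDH20 and PCDH9 and the glypican GPC6 were at 10.0 ± 1.02, 10.8 ± 1.82 and 6.73 ± 2.20 CPM in ROBO1pos (SD, n = 5), and at 0.124, 0.128 and 0.0618 CPM in ROBO1neg, where they rest on too few reads for a firm fold. All 8 were picked from the called genes, so that they were called is no result. Their adjusted p-values in edgeR's quasi-likelihood test (Benjamini-Hochberg) ran from 2.59e-14 to 2.40e-09.

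Chromosome 13 was not alone in its shift. Among 23 chromosomes its median of -0.53 over 272 genes was the second lowest, after chromosome 3 at -0.58 and before chromosome 17 at -0.51 and chromosome 9 at -0.42. The highest medians were those of chromosome 18, at 0.75, and chromosome 15, at 0.38. On chromosome 13, 70.2% of tested genes were called higher in ROBO1neg and 16.9% higher in ROBO1pos. DNA copy number was not analysed here.

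**Figure D4:**
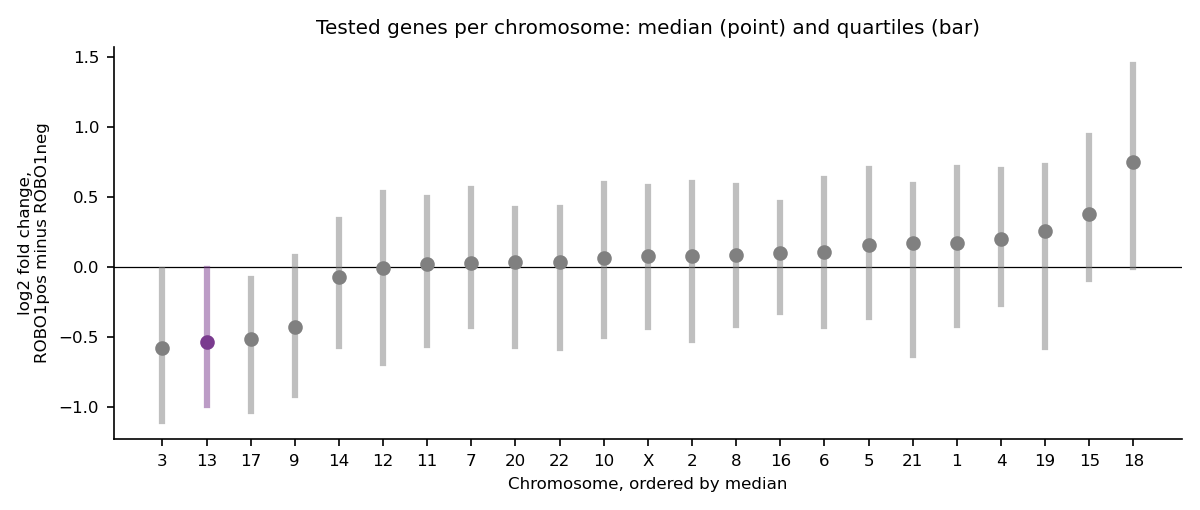
Median (point) and quartiles (bar) of the log2 fold change of tested genes on each of 23 chromosomes, ordered by the median, with chromosome 13 in purple. Chromosomes 3, 13, 17 and 9 lie apart below the others, at -0.58 to -0.42, and chromosome 18 lies highest at 0.75.

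Genes of the RB pathway encoded elsewhere in the genome changed in both directions. Of 34 such genes, 33 were tested, 17 were called higher in ROBO1neg, 11 higher in ROBO1pos and 5 were not called, with a median of -0.28. These shares, 51.5% and 33.3% of the tested genes, stand beside 40.4% and 41.6% over all genes, and the share called in either direction, 84.8%, was near the 82.0% of all genes. The D-type cyclins, which activate the kinases that phosphorylate RB, did not all differ in the same direction. CCND1 was at 404 ± 36.2 CPM in ROBO1pos and 3578 ± 455 CPM in ROBO1neg, for a log2 fold change of -3.15 (SE 0.09). CCND2 was at 600.2 ± 45.9 CPM in ROBO1pos and 11.3 ± 2.78 CPM in ROBO1neg, for a log2 fold change of 5.72 (SE 0.14). CCND3 was higher in ROBO1neg, as CCND1 was, at -1.20 (SE 0.07). Of the kinases of D-type cyclins, CDK6 was higher in ROBO1pos (2.27, SE 0.09) and CDK4 higher in ROBO1neg (-0.63, SE 0.04). CDK2, the partner of E-type cyclins, was higher in ROBO1neg (-1.14, SE 0.04). Values are means ± SD of 5 libraries, and edgeR's adjusted p-values for these 6 genes ran from 1.96e-13 to 2.39e-09. Both RB1 and CCND1, which act against each other in this pathway, were thus higher in ROBO1neg.

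Genes that E2F factors are known to control differed in both directions. All 27 were tested, 13 were called higher in ROBO1neg, 7 higher in ROBO1pos and 7 were not called, with a median of -0.13. The called share was 74.1% (48.1% and 25.9%), beside 82.0% of all genes (40.4% and 41.6%). TK1 and RRM2, which supply nucleotides for DNA synthesis, were higher in ROBO1neg by log2 fold changes of -1.79 (SE 0.06) and -1.57 (SE 0.07). CDC6, which loads the replicative helicase, was also higher there (-0.93, SE 0.05), and GINS2, a subunit of that helicase complex, was higher in ROBO1pos (0.36, SE 0.05). Adjusted p-values of edgeR's test for these 4 genes were between 8.35e-12 and 1.70e-05.

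Many members encode a protein that works in a complex, or for UFM1 in a modification pathway, with products of genes on other chromosomes. The partner genes listed here include CUL4B, CDK19, NAA15, PDS5A and SUCLG2, relatives of a member that can take its place. Partner counts and medians below include them. The members were selected on their fold change, and the partners were listed by complex with earlier results of these data known. The values are therefore set side by side as a description only. Of 55 such partner genes 53 were tested, all but INTS3 and SKA1. Among these 28 were called higher in ROBO1pos, 16 higher in ROBO1neg and 9 were not called, with a median of 0.14. The called share of 83.0% was near the 82.0% of all genes, and the median over all genes was 0.02. By direction, 52.8% were called higher in ROBO1pos and 30.2% higher in ROBO1neg, beside 41.6% and 40.4% of all genes. The exosome members EXOSC8 and DIS3 had a median of -0.55 and their 9 partners one of 0.28, among them EXOSC10, the nuclear exonuclease, at 0.85 (SE 0.03). The Integrator member INTS6 was at -0.32 and its 9 partners had a median of 0.20, with INTS7 at 1.12 (SE 0.04). COG3 and COG6 had a median of -0.68 and their 6 partners one of 0.08, although COG1 was as low as -0.99 (SE 0.04). CUL4A was at -0.46 and its 3 partners had a median of 0.20. They include its relative CUL4B, on the X chromosome, at -1.12 (SE 0.05). EXOSC10, INTS7, COG1 and CUL4B had adjusted p-values between 9.16e-12 and 4.66e-11 in edgeR's test.

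PDS5B was at -0.72 and its 6 cohesin partners had a median of 0.09. PAN3 was at -0.49 and PAN2 at 0.71. UFM1 (-0.43), NAA16 (-0.56) and GTF2F2 (-0.77) lay below partner medians of 0.23, 0.23 and 0.09. For CDK8, at -0.87, the partner median was -0.30, but the partners were split. MED13 was at -0.63, CDK19 at -0.57, CCNC at -0.03 and MED12 at 0.32. SKA3 was at -0.64 and its 1 tested partner at -0.23. The succinyl-CoA ligase member SUCLA2, at -0.27, lay between the genes listed beside it, SUCLG1 at 0.31 and SUCLG2 at -1.27. The order was the reverse in other complexes. VPS36, of ESCRT-II, was at 0.04 and its partners had a median of -0.30. PCCA and PCCB, which form propionyl-CoA carboxylase, differed in opposite directions, at 0.85 and -0.47.

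**Figure D5:**
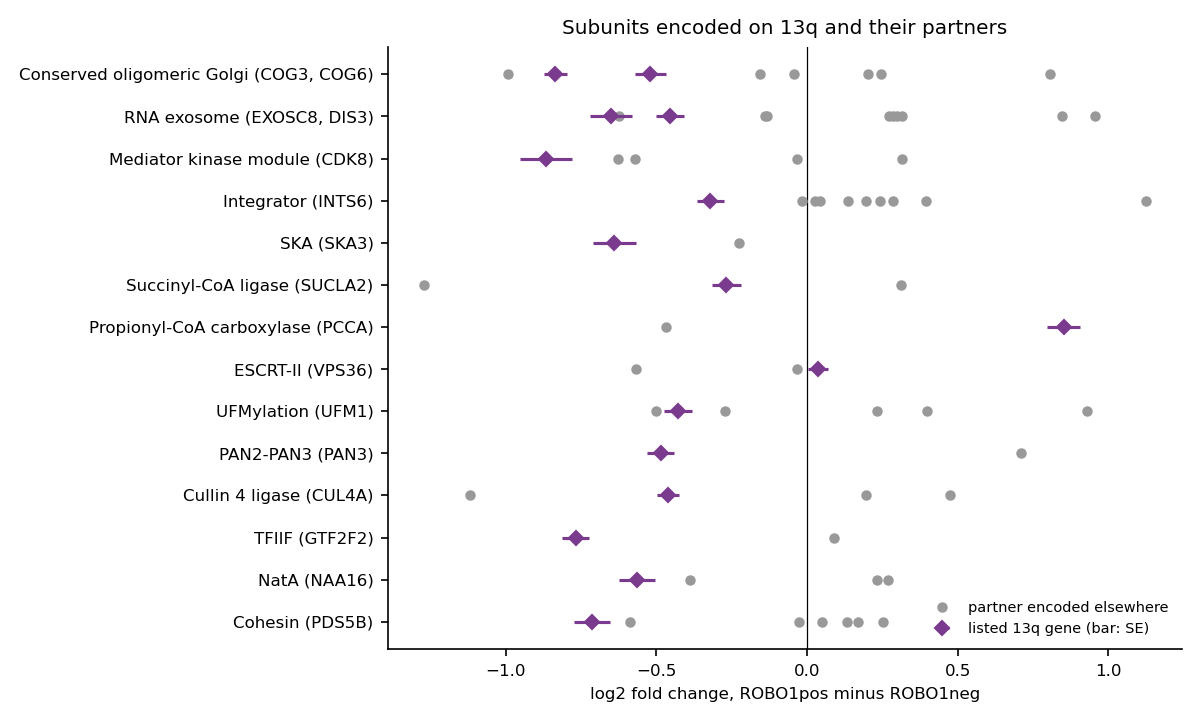
Log2 fold change (ROBO1pos minus ROBO1neg) of listed subunits (purple) and of partner subunits encoded on other chromosomes (grey) for 14 complexes. Partners scatter on both sides of 0, while all listed subunits except PCCA and VPS36 lie below 0.

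Promoter windows of 300 bases, from 250 before to 50 after a RefSeq start, were found for 55 of the 59 members, in 87 windows. SAP18, PARP4, ITM2B and TRIM13 had none in the table, and the window held for RB1 is at an internal start. Each word was sought on both strands. An E2F word, TTTCCCGC or TTTGGCGC, was in 2 member windows (2.30%), those of DIS3 and CUL4A, beside 2.27% of all 35116 windows. The NRF1 word, marked in the sequence printed above for TFDP1, was in 12 member windows (13.8%) beside 5.78% of all windows, and the ETS word CCGGAAG in 16 (18.4%) beside 10.3%. Several windows can belong to 1 gene, so the 12 NRF1 windows belong to 11 genes and the 16 ETS windows to 14. The words CCAAT (35.6% beside 34.6%) and TATAAA (12.6% beside 11.5%) were about as frequent as in all windows, and the CRE word TGACGTCA was in 0 member windows beside 1.85%. All members were tested genes, while the windows beside them were not limited to tested genes, so the shares are not matched for expression. These counts describe letters in the reference and show no binding.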

How the data were processed

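Bulk RNA-seq was measured in 10 libraries, 5 per sorted population. The authors deposited raw counts of reads per gene, not normalised, 1 file per library. The submitters' processing notes name the build GRCh38 and the tools bcl2fastq, FastQC, STAR 2.6.0c, DESeq2 1.24.0 and SAMtools 1.9. The labels' protocols name a stranded kit for polyadenylated RNA. Neither the tool that counted reads, nor its strand setting or annotation, is given in the sources used. Entries that name no gene (no feature, a mean of 15.8% of listed reads in ROBO1pos and 14.6% in ROBO1neg, ambiguous, 0.806% to 0.881%, and multiply aligned reads) did not enter library sizes or tests.

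Counts were analysed with edgeR 4.0.16 in R 4.3.3: filterByExpr, which kept 14932 genes, TMM scaling, and a quasi-likelihood fit with group as the only term. Genes were called at a Benjamini-Hochberg adjusted p under 0.05 over all tested genes. The biological coefficient of variation was 8.7%. No library was a duplicate: counts of within-group pairs differed by 3.48 to 21.2 times sampling variance. On simulated counts of 14813 genes, 99 of 100 genes changed by 1 on the log2 scale and 81 of 100 changed by 0.5 were recovered. Of 14613 unchanged genes 11 were called. The planted changes were few and balanced in direction, while 82.0% of tested genes were called in the data. Scaling and calls under such widespread differences were therefore not tested.

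Positions came from RefSeq (GRCh38.p14), matching 13663 tested genes by symbol and 942 by an older name and leaving 327 unplaced. Strand and exon length, the joined exons of all transcripts of a gene, came from GENCODE release 29. The members and lists were chosen with earlier results of these data known. Values in every library are given for RB1, TFDP1, the 6 highest and 6 lowest members, those of opposite sign or with overlapping groups, and head-to-head pairs. Of the other lists, up to 4 called genes with the smallest adjusted p were named, at most 3 per direction and 2 per complex, and of other chromosome 13 genes the 4 highest and 4 lowest of at least 5 CPM. CCND3, CDK4, PCCB and PAN2 were named after their values were seen. The alternatives were RLE, upper quartile and total-count scaling, TMM without chromosome 13, no filter beyond 1 count, 5 CPM in 5 libraries, DESeq2 1.42.0, limma-voom 3.58.1, a replicate block, and each library left out.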

Additional observations from a re-analysis of the deposited data

Results flagged for a closer look

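For 79 genes named with the list or its partners, each population's 5 libraries were searched for a library far from the other 4. Of 158 such groups 9 held a library beyond Dixon's limit, where chance alone gives about 1 in 20, or 7.9.

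In ROBO1pos replicate 5 this was ELF1 at 73.6 CPM (others 83.4 to 85.6), MED4 at 43.2 CPM (46.0 to 46.9) and ANKRD10 at 111 CPM (119 to 122), all lowest. TPT1 was lowest in ROBO1pos replicate 2 at 2699 CPM (others 3052 to 3151), and the sign of its small difference rests on that library. COG1 was highest in ROBO1pos replicate 1 at 26.2 CPM (others 23.9 to 24.5).

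In ROBO1neg replicate 5, HMGB1 was lowest at 614 CPM (others 651 to 660.2) and PROSER1 highest at 116 CPM (98.4 to 102). AKAP11 was lowest in ROBO1neg replicate 2 at 132 CPM (others 149 to 154), and INTS7 highest in ROBO1neg replicate 4 at 45.9 CPM (41.1 to 42.5). None of these values lies within the other population's range, although the groups of TPT1 overlap.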

How the results depend on the processing

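Under 19 alternatives, 259 of 266 summary values stayed within the set limits and 0 reversed. Upper quartile scaling, under which the median of all genes was 0.08 in place of 0.02, gave a member median of -0.43 in place of -0.50, 7 members called higher in ROBO1pos in place of 4 (POLR1D, VPS36 and FNDC3A were added), and a median of -0.52 for the other genes of chromosome 13 in place of -0.58. With no filter beyond 1 count, that median was -0.41 and 74 of these genes were called higher in ROBO1pos in place of 42, as more genes of low counts were tested (359). Leaving out 1 library at a time, the same median ran from -0.59 to -0.52, the member median from -0.51 to -0.49, members called higher in ROBO1neg from 50 to 51 and members called higher in ROBO1pos from 3 to 5. The filter of 5 CPM left 58 members, without ERCC5. With no filter beyond 1 count the call of VWA8 was lost, and total-count scaling added a call for POLR1D.

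With the replicate number as a block, 51 members were called higher in ROBO1neg and 4 higher in ROBO1pos. The block added a call for MYCBP2 and changed no other call of a member. The labels give the number no meaning, and deviations of same-numbered libraries correlated at 0.06 to 0.17. All 5 ROBO1pos and 3 of 5 ROBO1neg libraries correlated best with their own number, a hint from the data and not from the design.

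Pooled over genes, pairs of libraries within a group differed by 3.48 to 21.2 times sampling variance, a measure on which genes of high counts weigh most. The part of counting error in the spread of single members was not tested. ERCC5, with as few as 49 reads in a library, is the least certain member.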
